A study of Sus scrofa with 6 samples.

Results

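The 10 genes of sarcoplasmic reticulum calcium handling considered here were named by symbol, and 8 of the 10 could be followed through longissimus thoracis (LT) and semitendinosus (ST) muscles of Min pigs, among 25973 genes with a coding transcript in the files. ATP2A1, ATP2A2, SLN, CASQ1, PVALB, CACNA1S and JPH1 were found by symbol on Sscrofa11.1. CASQ2 was found by position, since its gene carried no symbol in the tables used. PLN and RYR1 had no match and were not analysed here. Both muscles were taken from the same 3 wild-type pigs, 1 library per muscle and pig, which gave 3 LT and 3 ST libraries, and the labels name no treatment. By the study's methods the pigs were of the same age, and the labels used here give neither age nor sex. Total RNA of whole muscle was depleted of rRNA and sequenced, and the authors deposited 1 value per transcript in FPKM, that is fragments scaled to the length of the transcript and to all mapped fragments of the library. FPKM was summed over all transcripts of a gene, so levels of different genes can be set side by side per length. FPKM holds no read counts, so the reads behind single values are unknown and no counting interval is given. The paper reports a similar mean number of clean read pairs for LT and ST, and depth per library was not used here.

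Muscle fibres contract when calcium leaves the sarcoplasmic reticulum and relax when it is pumped back. The voltage sensor CACNA1S in the transverse tubule opens the release channel RYR1 at junctions that junctophilin JPH1 holds together, calsequestrins CASQ1 and CASQ2 bind calcium inside the store, and the ATP2A pumps return it under the restraint of the small membrane proteins SLN and PLN. Fast fibres are known for ATP2A1 and for the cytosolic calcium buffer PVALB, whereas slow fibres and heart use ATP2A2 and more of CASQ2.

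ST and LT were compared with limma on log2(summed FPKM + 0.1) over 19679 genes. Neither this fit nor the exact permutation tests paired the muscles by pig. A gene was called when its Benjamini-Hochberg adjusted p was under 0.05 and its log2 difference, always ST minus LT, was over 1 in size. By this rule 0 of the 8 genes were called, beside 0.579% of all genes tested. Without the adjustment 5 of the 8 had p under 0.05, against 19% of all genes. LT and ST did not overlap in 4 of the 8 genes, against 24.8% of all genes, with 2 above LT (16.7% of all genes) and 2 below (8.16%). The median log2 difference of the 8 was -0.74, and that of all genes was 0.13. A fit with the pig number as a block called 1 of the 8, beside 4.26% of all genes.

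ST replicate 2 stood apart from ST replicates 1 and 3. Summed FPKM of 7 slow fibre markers was between 4601 and 7080 in LT, but 38917, 6217 and 39102 in ST replicates 1, 2 and 3. Summed FPKM of 5 fast fibre markers was between 17833 and 21263 in LT and was 4259, 14701 and 2503 in ST. ST replicate 2 therefore lay inside the LT range for the summed slow list, and below LT but far above the other ST libraries for the fast list. By single genes, MYL3, TNNT1 and MYOZ2 were at 465, 382 and 27.8 FPKM in ST replicate 2, above the highest LT values of 293, 348 and 19.4. The other 4 slow markers overlapped. Within each of the 3 pigs, pig 2 included, all 7 slow markers were higher in ST and all 6 fast markers tested were lower. A same direction in 3 pigs was found in 48% of all genes. A pair of genes known for the hindlimb, TBX4 and HOXC10, did separate the muscles by label, with HOXC10 between 0.297 and 1.33 FPKM in LT and at 2.98, 3.51 and 2.90 in ST, and TBX4 at most 0.00937 in LT and between 0.126 and 0.222 in ST. All ST libraries lay above all LT libraries in 16.7% of all genes, and TBX4 in ST was close to the filter of 0.1 FPKM. The pair was picked outside the rule for naming genes, and PITX1 and TBX5, also looked up, are not reported here. Mitochondrial transcripts took 2.91% to 4.25% of the fragments in LT and 6.15% to 8.48% in ST. The differences of the 8 genes are hence also given without ST replicate 2. In whole muscle, fewer fibres of a type and less RNA per fibre cannot be told apart.

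**Figure D1:**
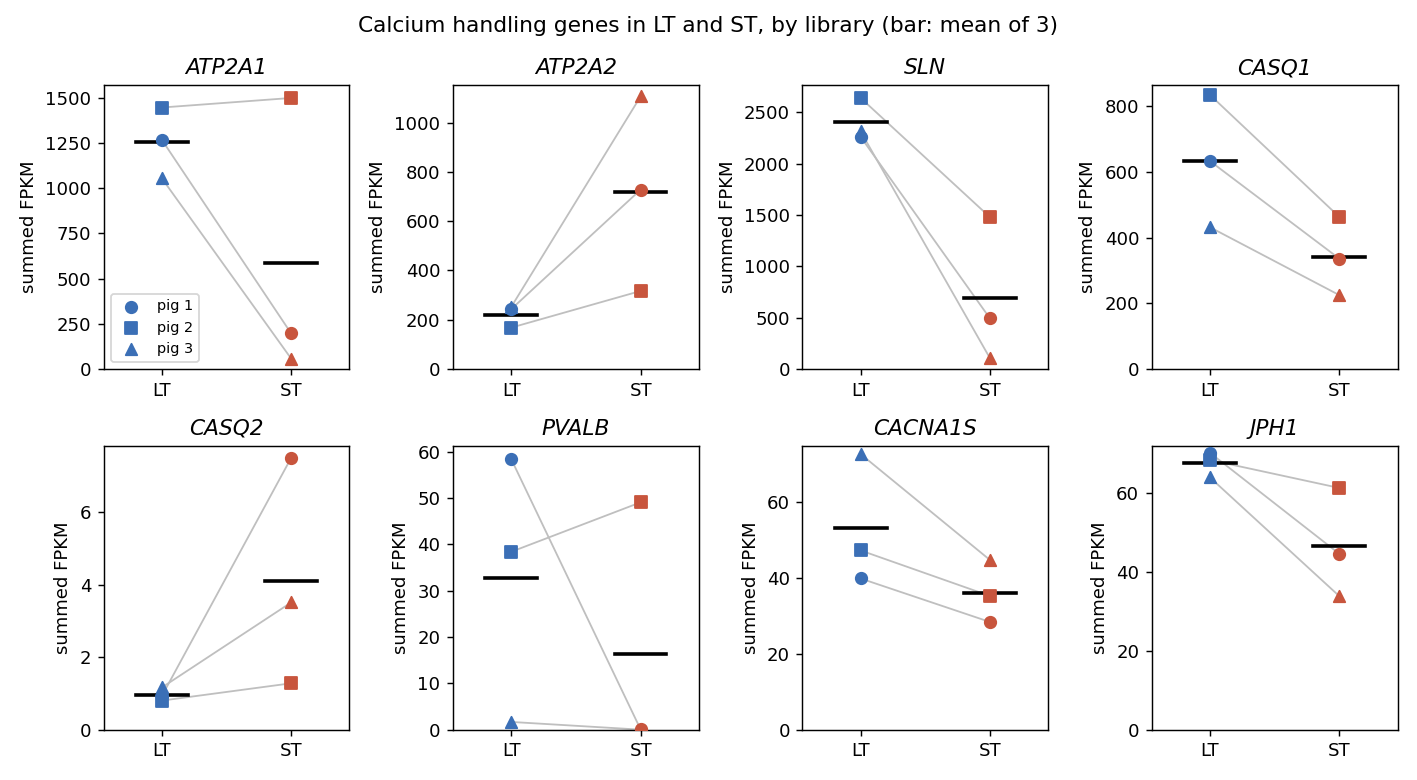
Summed FPKM (vertical axis, linear, from 0) of the 8 calcium handling genes in LT and ST, with 1 point per library, grey lines joining the libraries of 1 pig and black bars for the mean of 3. The squares of pig 2 stay high in ST for ATP2A1 (1499 FPKM) and PVALB (49.1 FPKM), while the other ST points of these genes are at 196 FPKM or less.

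The pumps differed widely between ST libraries. ATP2A1 (ENSSSCG00000007805, chr3:18547976-18568313, plus strand), the fast form of the sarcoplasmic reticulum calcium pump, had 1267, 1446 and 1054 FPKM in LT replicates 1, 2 and 3. In ST it had 196, 1499 and 56.7 FPKM. ST replicate 2 was the highest of all 6 libraries and ST replicate 3 the lowest, so the muscles overlapped, and ST was lower than LT in pigs 1 and 3 only. The means were 1256 ± 196 FPKM (SD, n = 3) for LT and 584 ± 795 FPKM (SD, n = 3) for ST. The log2 difference was -2.28 (SE 0.997, limma adjusted p = 0.266), and the 2-sided exact permutation test gave p = 0.4. Without ST replicate 2 the log2 difference was -3.56 (limma adjusted p = 0.0113), over alternatives whose adjusted p ran from 0.0113 to 0.523.

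ATP2A2 (ENSSSCG00000034386, chr14:31674757-31744973, plus strand), the pump of slow fibres and heart, had 243, 168 and 252 FPKM in LT and 728, 317 and 1107 FPKM in ST. All 3 ST libraries were above all 3 LT libraries, and ST was higher in each pig, with the smallest step in pig 2. The means were 221 ± 46.3 FPKM (SD, n = 3) for LT and 717 ± 395 FPKM (SD, n = 3) for ST, a fitted 2.92-fold ratio with a 95% interval of 1.44 to 5.91. The log2 difference of 1.54 (SE 0.44) had a limma adjusted p of 0.122, and the exact permutation test gave p = 0.1, the smallest that 3 against 3 libraries allow. ATP2A2 was the only one of the 8 genes that was called with the pig number as a block (log2 difference 1.54, limma adjusted p = 0.0323), a fit that called 4.26% of all genes. It was also called without ST replicate 2 (log2 difference 2.05, limma adjusted p = 0.0117) and without both libraries of pig 2 (1.86, limma adjusted p = 0.0467), and over all alternatives its adjusted p ran from 0.0117 to 0.333.

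The mixture of the 2 pumps ranged more widely over the libraries than their sum, though ratios, shares and sums are unlike measures. Summed FPKM of ATP2A1 and ATP2A2 came to 1510, 1614 and 1306 in LT, and to 924, 1815 and 1163 in ST, a 1.96-fold range over the 6 libraries. The FPKM ratio of ATP2A2 to ATP2A1 was 0.192, 0.116 and 0.239 in LT, against 3.71, 0.211 and 19.5 in ST, a 168-fold range. As a share of both pumps, ATP2A2 made up 16.1%, 10.4% and 19.3% in LT, against 78.8%, 17.4% and 95.1% in ST, a 9.15-fold range. The share of ST replicate 2 thus lay inside the LT range, and ATP2A2 was the larger part of the pair in ST replicates 1 and 3 alone. The mean share was 15.3% ± 4.51 (SD, n = 3) for LT and 63.8% ± 41.0 (SD, n = 3) for ST.

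Troponin pairs gave the same order of ST libraries. TNNI1, the slow form of troponin I, made up 4.19% to 6.83% of TNNI1 and TNNI2 in LT, and 61.4%, 6.03% and 84.5% in ST. TNNC1, the troponin C of slow fibres and heart, made up 16.9% to 26.1% of TNNC1 and TNNC2 in LT, and 90.4%, 28.6% and 97.1% in ST. The part of fibre composition in the pump values was not tested.

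**Figure D2:**
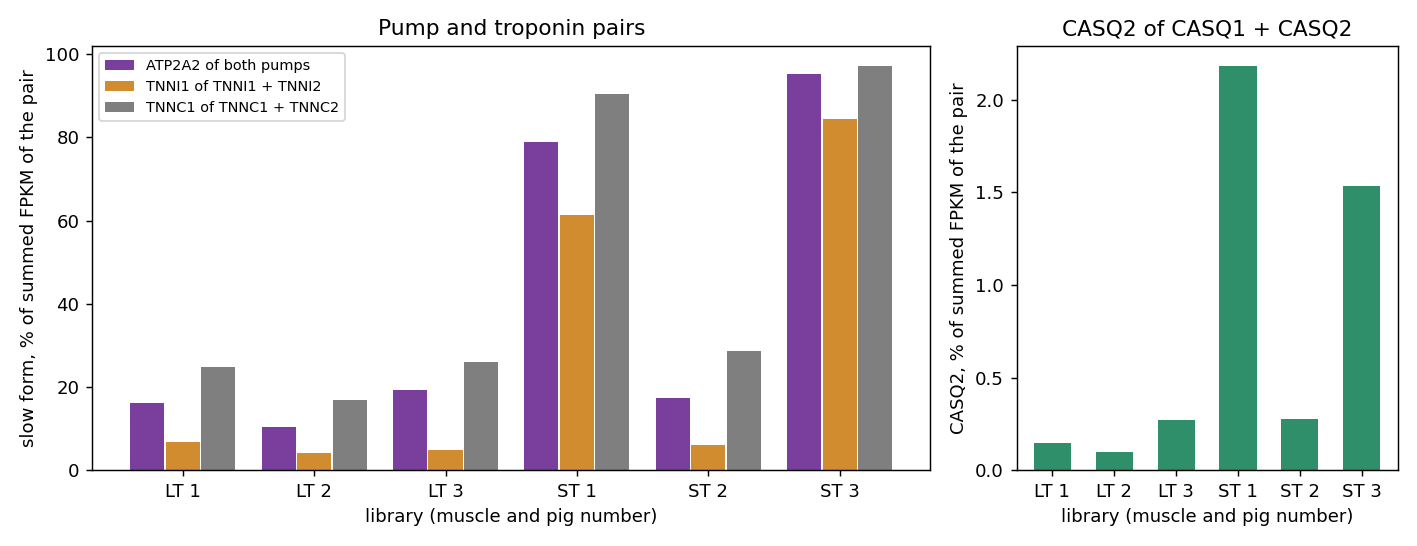
Slow form as percent of the summed FPKM of a slow and fast pair in each library, for the ATP2A pumps, troponin I and troponin C (left) and for calsequestrin (right, on its own scale). For the pumps, ST replicates 1 and 3 reach 78.8% and 95.1%, and ST replicate 2 is at 17.4%, inside the LT range of 10.4% to 19.3%.

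SLN (ENSSSCG00000029651, chr9:36232968-36242405, minus strand) encodes sarcolipin, a small membrane protein that inhibits the pump, and was the most abundant of the 8 genes per length in each LT library but in no ST library. It had 2261, 2640 and 2313 FPKM in LT and 492, 1478 and 105 FPKM in ST. Every ST library was below every LT library, with the widest spread within ST. The means were 2404 ± 206 FPKM (SD, n = 3) for LT and 692 ± 708 FPKM (SD, n = 3) for ST. The log2 difference was -2.50 (SE 0.82, limma adjusted p = 0.160), with p = 0.1 in the exact permutation test. Without ST replicate 2 SLN was called, with a log2 difference of -3.40 and a limma adjusted p of 0.0208, where all alternatives ran from 0.0208 to 0.360.

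SLN followed ATP2A1 more closely than the pumps together. The FPKM ratio of SLN to ATP2A1 was 1.78, 1.83 and 2.19 in LT, against 2.51, 0.986 and 1.85 in ST, so the muscles overlapped. Against both pumps summed, SLN was at 1.497, 1.64 and 1.77 in LT and at 0.533, 0.814 and 0.0900 in ST, so each ST library held less SLN per pump RNA than each LT library. SLN per ATP2A2 was between 9.17 and 15.7 in LT and was 0.676, 4.67 and 0.0946 in ST. These ratios were not tested.

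CASQ1 (ENSSSCG00000006390, chr4:90276754-90288011, minus strand), the main calsequestrin of skeletal muscle, had 633, 834 and 431 FPKM in LT and 336, 463 and 225 FPKM in ST. The muscles overlapped, since LT replicate 3 was below ST replicate 2, but ST was lower in each pig by nearly the same step, with log2 differences of -0.91, -0.85 and -0.94 in pigs 1, 2 and 3. Over the 6 libraries the log2 difference was -0.90 (SE 0.35, limma adjusted p = 0.218), and the exact permutation test gave p = 0.2. Without ST replicate 2 it was -1.15 (limma adjusted p = 0.0833), and CASQ1 was not called. Its limma adjusted p was 0.0521 once the pig number entered as a block, in a range of 0.0521 to 0.497 over the alternatives.

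CASQ2 (ENSSSCG00000006745, chr4:104918501-104999787, plus strand), the calsequestrin of heart and slow fibres, was present at a small fraction of the CASQ1 level. The gene covered 99.5% of the RefSeq interval of CASQ2 (chr4:104918204-104984019) and ran past its end. It had 0.930, 0.801 and 1.16 FPKM in LT and 7.49, 1.28 and 3.51 FPKM in ST. All ST libraries were above all LT libraries, with ST replicate 2 just above the highest of LT. The log2 difference was 1.67 (SE 0.54, limma adjusted p = 0.159, exact permutation p = 0.1). At these low levels it depended on the pseudocount, with 1.75 at 0.01 and 1.18 at 1. Without ST replicate 2 CASQ2 was called at 2.31 (limma adjusted p = 0.0149, from 0.0149 to 0.365 over the alternatives).

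CASQ2 as a share of both calsequestrins was 0.147%, 0.0959% and 0.269% in LT, against 2.18%, 0.276% and 1.54% in ST. It thus separated the muscles, yet stayed at most 2.18% of the pair, whereas ATP2A2 reached 95.1% of its pair. Of the heart muscle markers, those with a gene of their own in the files were low, with NKX2-5 at most 0.0116 FPKM and cardiac troponin I (TNNI3) between 0.278 and 0.673 FPKM in LT and at 3.18, 0.459 and 1.14 FPKM in ST.

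PVALB (ENSSSCG00000000138, chr5:10955491-10973289, plus strand) encodes parvalbumin, the cytosolic calcium buffer of fast fibres, and had the largest SE of the 8 genes. It had 58.4, 38.4 and 1.67 FPKM in LT. In ST it had 0.0718 and 49.1 FPKM in replicates 1 and 2 and was listed at 0 in replicate 3. Each muscle thus held both high and low libraries, and ST was higher in pig 2 and lower in pigs 1 and 3. LT replicate 3 was low for PVALB although its ATP2A1, at 1054 FPKM, was near that of the other LT libraries. The log2 difference was -4.07 (SE 2.31, limma adjusted p = 0.380, exact permutation p = 0.3), and it was -5.51 with a pseudocount of 0.01 and -2.29 with a pseudocount of 1. Without ST replicate 2 it was -6.92 and PVALB was called (limma adjusted p = 0.0313, from 0.0313 to 0.683 over the alternatives).

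CACNA1S (ENSSSCG00000024784, chr10:23502898-23568032, minus strand), the pore and voltage sensor of the transverse tubule calcium channel, had 39.9, 47.3 and 72.8 FPKM in LT and 28.4, 35.3 and 44.8 FPKM in ST. The muscles overlapped, but each pig had less in ST, by log2 differences of -0.49, -0.42 and -0.70. The fitted log2 difference was -0.54 (SE 0.27, limma adjusted p = 0.329, exact permutation p = 0.2). It was -0.53 without ST replicate 2, so CACNA1S moved least of the 8 genes without that library.

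JPH1 (ENSSSCG00000006174, chr4:61628299-61716546, plus strand), the junctophilin that ties the transverse tubule to the store, had 70.2, 68.4 and 64.0 FPKM in LT and 44.6, 61.3 and 33.9 FPKM in ST. LT libraries lay close together and all ST libraries were below them. The log2 difference was -0.58 (SE 0.23, limma adjusted p = 0.236, exact permutation p = 0.1), and it was -0.79 without ST replicate 2 (limma adjusted p = 0.0560, from 0.0560 to 0.516 over the alternatives). The FPKM ratio of CACNA1S to JPH1 was 0.568, 0.692 and 1.14 in LT, against 0.637, 0.576 and 1.32 in ST, with no separation of the muscles.

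By mean FPKM the order in LT was SLN (2404), ATP2A1 (1256), CASQ1 (633), ATP2A2 (221), JPH1 (67.5), CACNA1S (53.3), PVALB and CASQ2. In ST the highest mean was that of ATP2A2 (717), ahead of SLN (692) and ATP2A1 (584), and these 3 did not differ beyond their spread. The highest gene was ATP2A2 in ST replicates 1 and 3 and ATP2A1 in ST replicate 2. CASQ1 was above ATP2A2 in each LT library and in ST replicate 2 and below it in ST replicates 1 and 3, and PVALB was below CASQ2 in ST replicates 1 and 3 alone. JPH1 and CACNA1S overlapped in both muscles.

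Without ST replicate 2, 5 of the 8 genes were called, beside 5.15% of all genes, with ATP2A2 and CASQ2 higher in ST (3.34% of all genes) and ATP2A1, SLN and PVALB lower (1.81%). That fit compared 2 ST libraries with 3 LT libraries. Several of the 8 genes are themselves fast or slow forms. The library left out was singled out by fibre marker sums nearer to LT than in the other ST libraries. The stronger differences without it are therefore not separate support for a difference between the muscles. Leaving out any other single library called 0 of the 8. Those fits called only 11 to 23 of 19523 to 19615 genes tested, so that count is not a result about the 8. Without both libraries of pig 2, 1 of the 8 was called, beside 1.28% of all genes. ST and LT differed in the same direction in all 3 pigs in 6 of the 8 genes, against 48% of all genes, and the exceptions were ATP2A1 and PVALB.

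**Figure D3:**
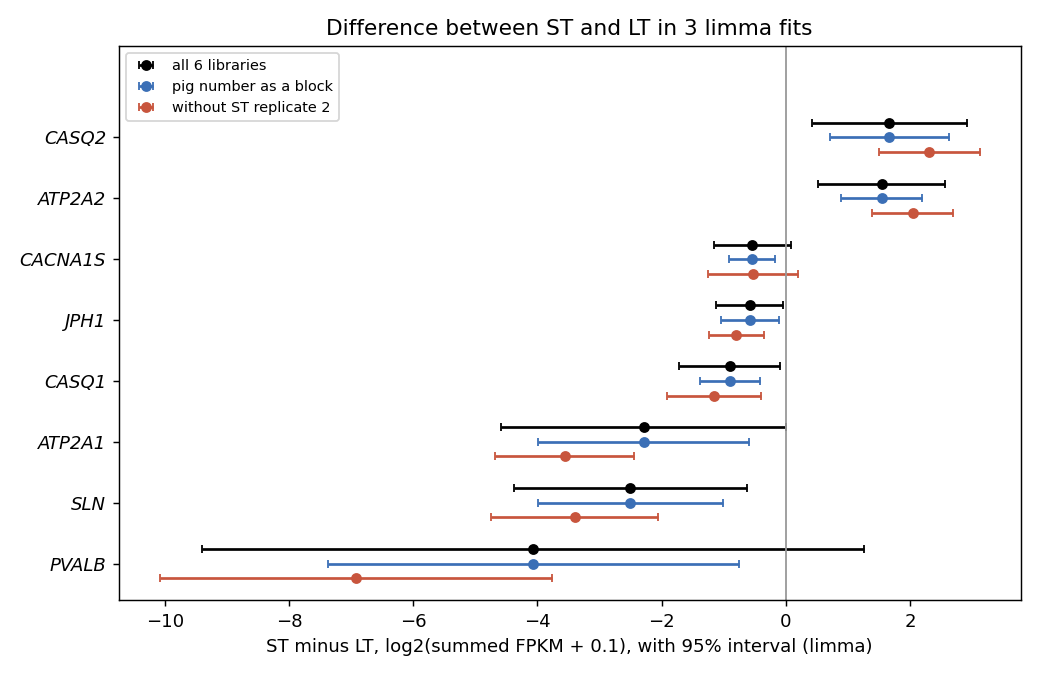
Log2 difference of summed FPKM + 0.1 between ST and LT (horizontal axis, ST minus LT) with 95% intervals from limma for the 8 genes, over all 6 libraries (black), with the pig number as a block (blue) and without ST replicate 2 (red). CASQ2 and ATP2A2 lie above 0 in all 3 fits, and the other 6 lie below 0, with the widest intervals for PVALB.

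The sums rested on 22 transcripts, of which 19 passed the filter on FPKM. None of the 19 was called by limma over 52102 transcripts, where 0.146% were called, 4 had an unadjusted p under 0.05 (9.69% of all transcripts) and the lowest adjusted p was 0.441. A block for the pig called 0 of them as well, beside 0.00384% of all transcripts, and without ST replicate 2 none had an adjusted p under 0.05, beside 0.507% called. Single transcripts carried ATP2A1 (ENSSSCT00000075465, at least 99.4% in each library) and CASQ1 (ENSSSCT00000007003, at least 99.9%). SLN, PVALB and JPH1 had 1 transcript each.

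ATP2A2 was divided between ENSSSCT00000045994, with 22 exons, and ENSSSCT00000040296, with 21 exons. The first made up 100%, 60.9% and 70.8% of the gene in LT and 54.4%, 61.8% and 82.8% in ST. The second was listed at 0 in LT replicate 1 and had 65.6 and 73.6 FPKM in LT replicates 2 and 3 and 332, 121 and 190 FPKM in ST. The shares overlapped between the muscles, so the higher sum in ST was spread over both transcripts.

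CACNA1S had 8 transcripts, and ENSSSCT00000066256 made up 52.3% to 74.0% of the gene. The remainder changed hands between libraries. ENSSSCT00000069476 held 23.8% to 32.3% in 4 libraries but 1.69% in ST replicate 3 and was listed at 0 in LT replicate 2, while ENSSSCT00000043789 held 41.7% in ST replicate 3. For CASQ2, ENSSSCT00000066296 made up at least 99.7% of the gene in 5 libraries and 35.5% in LT replicate 1, where ENSSSCT00000007390 held 64.5%. Transcripts of 1 gene share most of their sequence, so how FPKM is divided between them is less certain than the sum.

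**Figure D4:**
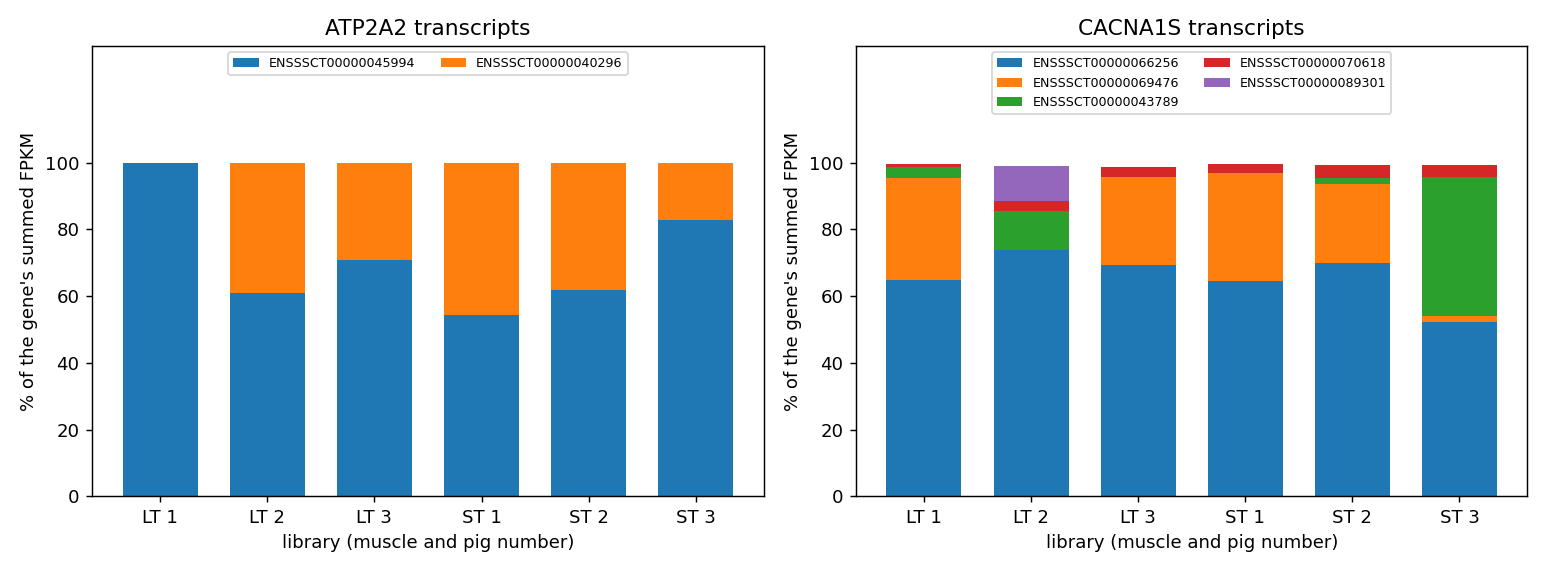
Percent of the summed FPKM of ATP2A2 (left) and CACNA1S (right) carried by each transcript in each library, with transcripts under 1% in every library left out. ENSSSCT00000045994 ranges from 54.4% to 100% of ATP2A2, and ENSSSCT00000043789 takes 41.7% of CACNA1S in ST replicate 3.

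Of 50 other genes of the calcium store and of excitation-contraction coupling, 48 were found and 47 passed the filter. Limma called 1 of the 47 lower in ST and 0 higher, beside 0.168% and 0.412% of all genes. Its unadjusted p was under 0.05 in 18, against 19% of all genes. Of the 18, 5 were higher in ST and 13 lower, a split that was not computed over all genes. The median log2 difference of the 47 was -0.05. Once the pig number entered as a block, the count was 4, with 2 higher (2.95% of all genes) and 2 lower (1.31%), and without ST replicate 2 it was 7, with 2 higher (3.34%) and 5 lower (1.81%).

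ASPH was the gene called. Its locus encodes aspartate beta-hydroxylase and also junctin and junctate, proteins of the store membrane. It had 74.1, 68.9 and 82.2 FPKM in LT and 29.9, 39.1 and 25.9 FPKM in ST, with every ST library far below LT, and fell by 1.26 on the log2 scale (SE 0.20, limma adjusted p = 0.0459). The call was lost when any single library but ST replicate 2 was left out, with log2 differences of -1.27, -1.32 and -1.20 without LT replicates 1, 2 and 3 and of -1.23 and -1.13 without ST replicates 1 and 3, and with limma adjusted p from 0.127 to 0.173. In those fits 11 to 23 of all genes were called, against 114 over the 6 libraries. Without ST replicate 2 the log2 difference of ASPH was -1.43 (limma adjusted p = 0.00886). Among the 9 junction genes tested, 8 had a log2 difference below 0, from -1.26 for ASPH upward, against 39% of all genes. JPH2, the second junctophilin of muscle, had 84.7, 70.0 and 46.5 FPKM in LT and 46.0, 79.4 and 48.6 FPKM in ST, a log2 difference of -0.21 (limma adjusted p = 0.746), though its gene covered 61.8% of the RefSeq interval.

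None of the 5 release channel genes tested was called, and their log2 differences lay between 0.25 and 0.81, where 61% of all genes had a difference above 0. The inositol trisphosphate receptor ITPR2 had 5.77, 6.37 and 7.67 FPKM in LT and 11.6, 10.2 and 12.0 FPKM in ST, with no overlap (log2 difference 0.77, SE 0.18, limma adjusted p = 0.0857). The ryanodine receptors RYR2, of heart, and RYR3 were low, at most 0.236 FPKM and 1.004 FPKM. Their log2 differences of 0.25 and 0.81 had limma adjusted p of 0.679 and 0.516, and the muscles overlapped in both.

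ATP2A3, the third pump gene, which is known from non-muscle cells, had 1.55, 1.41 and 1.37 FPKM in LT and 3.21, 2.72 and 4.52 FPKM in ST. ST lay above LT throughout, with a log2 difference of 1.19 (SE 0.23, limma adjusted p = 0.0655), and ATP2A3 was called with the pig number as a block (log2 difference 1.19, limma adjusted p = 0.0339), after rescaling to nuclear genes (1.27, limma adjusted p = 0.0469) and without ST replicate 2 (1.34, limma adjusted p = 0.0220), in a range up to 0.218. Endothelial markers moved in the same direction, with 28.4 to 35.8 summed FPKM over 4 genes in LT and 42.0 to 81.3 in ST, and CDH5 (cadherin of endothelial junctions) was called higher in ST (log2 difference 1.22, limma adjusted p = 0.0399). Smooth muscle markers summed to 122 to 139 FPKM over 5 genes in LT and 161 to 205 FPKM in ST. The part of either cell type in ATP2A3 and ITPR2 was not tested.

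Regulators of the channels went both ways. S100A1, a calcium sensor of muscle, had 49.3, 40.4 and 35.7 FPKM in LT and 198, 66.3 and 172 FPKM in ST (log2 difference 1.66, SE 0.39, limma adjusted p = 0.0869), but its gene in the files also covered CHTOP, so the values are of both. S100A1 was called without ST replicate 2, where the log2 difference was 2.15 (limma adjusted p = 0.00352, up to 0.253 over the alternatives). S100A1 was also called once the pig number entered as a block, at 1.66 (limma adjusted p = 0.0339). CALM3, a calmodulin gene, had a log2 difference of -0.75 (limma adjusted p = 0.130).

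TMEM109, a store membrane cation channel, had a log2 difference of -0.85 (limma adjusted p = 0.120), and CACNG1, the gamma subunit of the voltage sensor, had one of -0.87 (limma adjusted p = 0.139). Both were lower in every ST library than in LT. The lowest log2 difference of the list was -2.20, for ATP2B2, a plasma membrane calcium pump named here after its values were seen. It had 4.95, 4.66 and 3.96 FPKM in LT and 0.410, 4.51 and 0.325 FPKM in ST (limma adjusted p = 0.193), so ST replicate 2 again lay among the LT libraries. Its log2 difference without ST replicate 2 was -3.31 (limma adjusted p = 0.00203, up to 0.416 over the alternatives), and TMEM109 was called as well, at -1.05 (limma adjusted p = 0.0411, up to 0.304).

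**Figure D5:**
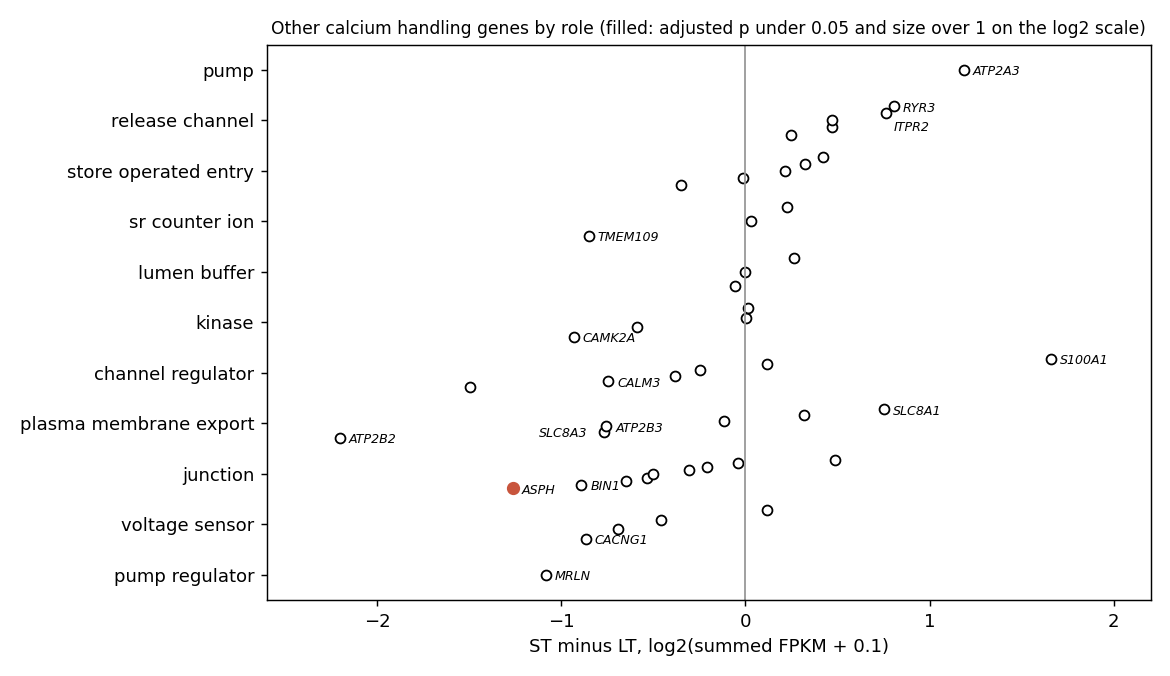
Log2 difference of summed FPKM + 0.1 between ST and LT (horizontal axis, ST minus LT) for the 47 other calcium handling genes tested, 1 point per gene, grouped by role, with the called gene filled. ASPH at -1.26 is the called gene, 8 of 9 junction points lie below 0 and the 5 release channel points lie between 0.25 and 0.81, with 39% of all genes below 0 and 61% above.

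The genes nearest to ATP2A1, ATP2A2 and CASQ2 in profile were sought among 11269 genes with a mean of at least 1 FPKM, by the root mean square difference of the centred log2 values over the 6 libraries. Nearest to ATP2A1 was MYBPC2, the fast myosin binding protein C, at 0.236, followed by TNNC2, the fast troponin C, at 0.305. The third, at 0.306, was an unannotated gene on chr6:55276646-55310185 that overlaps MYBPC2. Nearest to ATP2A2 were MBOAT2 (0.120), FGF9 (0.129) and EGLN3 (0.134), all at lower FPKM than ATP2A2, and among the nearest to CASQ2 were HES1 (0.240) and CDKL1 (0.268).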

How the data were processed

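FPKM values per transcript were deposited for LT and ST muscles of 3 Min pigs. The authors filtered reads with SOAPnuke, mapped them to Sscrofa11.1 with HISAT2 and assembled transcripts with StringTie. Directional libraries were made, and whether strand was used in assembly is not given in the sources used here. FPKM was summed over the transcripts of a gene ID. Genes without a symbol were matched by position to RefSeq genes of the same assembly, when at least 50% of the interval was covered and no other coding gene was.

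Genes over 0.1 FPKM in at least 1 library were tested with limma 3.58.1 (R 4.3.3) with a variance trend, Benjamini-Hochberg adjustment and, for single genes, 2-sided exact permutation tests (Python 3.11.15, scipy 1.17.1). In simulated data for this comparison, 191 of 200 genes changed by 4 on the log2 scale were recovered among 19323, with 5 false calls. The simulated noise was independent between libraries and held no pig effect. Of the members only PVALB differed by that much, so the recovery does not give the power for the others. The same replicate number marks the same pig, from the methods and titles, and deviations of same-numbered libraries correlated at 0.301, 0.276 and 0.303 (others -0.199 to -0.116). Replicates are pigs.

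The genes and lists were chosen with earlier results of these data known. Named were all members found, the pathway gene called and those with the smallest p up to 8, other forms of member families, and the markers with the lowest and highest log2 difference of each list. Some items chosen by this rule are not reported here. MYH7 and MYH4 had no gene of their own, and the TNNT3 gene spans 10 RefSeq genes. Marker sums leave out genes merged with neighbours. No sequence is printed. Alternatives were other pseudocounts and filters, a pig block, quantile normalization, rescaling to nuclear genes, no variance trend, Ensembl transcripts alone, the highest transcript alone, and leaving out each library.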

Additional observations from a re-analysis of the deposited data

How the results depend on the processing

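The log2 differences of the 8 genes kept their sign under all 16 alternatives, and 121 of the 128 values stayed on the same side of the threshold, while 7 became called. In the pairing of muscles by pig, with the replicate block, ATP2A2 was called at 1.54, and the counts went from 0 to 1 member, from 1 to 4 other calcium genes and from 114 to 838 genes in all. The block changed no other call of the 8. Its limma adjusted p was 0.0521 for CASQ1, 0.0617 for CASQ2, 0.0665 for SLN and 0.0937 for CACNA1S. For ATP2A1, JPH1 and PVALB it was 0.1105, 0.129 and 0.133. Leaving out both libraries of pig 2, chosen after the data were seen, called ATP2A2 at 1.86, 1 member, 3 other calcium genes and 248 genes in all.

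Leaving out single libraries gave 0 to 5 members, 0 to 7 other calcium genes and 11 to 1006 genes, the highest each without ST replicate 2. The log2 differences then ran from -3.56 to -1.20 for ATP2A1, from 1.14 to 2.05 for ATP2A2, from -3.40 to -1.49 for SLN, from 1.08 to 2.31 for CASQ2 and from -6.92 to -2.45 for PVALB. ASPH lost its call without any single library but ST replicate 2. The share of ATP2A2 among pumps differed by 48.5 points between the muscles, and by 32.9 to 71.7 points without single libraries. That of CASQ2 differed by 1.16 points and by 0.735 to 1.69.

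The other calcium genes called were 0 without a filter, without the variance trend and with quantile normalization, and were 2 after rescaling to nuclear genes, for which the causes were not tested. All genes called were 6, 31, 62 and 272 in these settings. The median of all genes was 0.13 as deposited, -0.01 after quantile normalization and 0.20 after rescaling. Of the genes called, 81 were higher in ST and 33 lower as deposited, against 33 and 29 after quantile normalization, 223 and 49 after rescaling, 17 and 14 without the trend, and 1 and 5 without a filter. Depth could not be assessed from FPKM.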

Other observations

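Unannotated transcripts lay opposite 6 of the 8 genes. The share of all genes with such a transcript was not computed, so the count is not a trait of these genes. Opposite ATP2A2, an assembled transcript (chr14:31674623-31707637) had 26.1, 21.9 and 23.9 FPKM in LT and 50.3, 22.1 and 94.7 FPKM in ST, 6.91% to 13.1% of the FPKM of ATP2A2. Opposite JPH1 the range was 7.23% to 9.07%, and opposite CACNA1S 7.69% to 10.3%. For CASQ1 it was 0.753% to 1.07% and for SLN 0.346% to 1.76%. CASQ2 had a pair of such loci, at 3.80% to 11.5% and 5.39% to 15.4%. Whether reads were split by strand is not given in the sources used here, so reads of the genes and of these transcripts cannot be told apart.

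The other marker lists had these ranges. Summed FPKM of adipocyte markers was 139 to 243 in LT and 230 to 317 in ST, although 5 of the 6 genes had a log2 difference below 0 (median -0.82). LPL, lipoprotein lipase, was called higher in ST (66.2 ± 6.74 against 176 ± 9.14 FPKM, SD, n = 3, limma adjusted p = 0.0248), and PLIN1, the lipid droplet perilipin, had the lowest log2 difference of that list at -1.11 (limma adjusted p = 0.335). LPL was the only gene of the list with a log2 difference above 0, and the higher summed range in ST rested on it. Fibroblast markers summed to 632 to 1346 FPKM in LT and 665 to 1239 in ST, with COL1A1 at -0.54 and LUM at 0.48 on the log2 scale. Immune markers summed to 11.01 to 14.1 FPKM in LT and 10.1 to 25.8 in ST, with CD3E at 0.70 and CD79A, whose gene spans 3 RefSeq genes, at 0.02. Red blood cell markers summed to 8.19 to 17.3 FPKM in LT and 7.48 to 10.5 in ST, with HBB, whose gene spans 14 RefSeq genes and is not in the sum, at -0.17, and nerve markers to 7.56 to 30.7 and 2.76 to 14.6 FPKM, with MBP at -0.70. None of the genes of these last 4 lists was called by limma (lowest adjusted p 0.193), beside 0.579% of all genes. Among them 2, both immune, had an unadjusted p under 0.05, against 19% of all genes.

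Among the endothelial markers PECAM1, whose gene in the files spans 3 RefSeq genes, had the highest log2 difference at 1.39 (limma adjusted p = 0.0424) and CLDN5 the lowest at 0.25, and among the smooth muscle markers SMTN was at 1.04 (limma adjusted p = 0.0645) and LMOD1 at -0.22. Of the slow fibre markers MYOZ2 was at 3.07 (limma adjusted p = 0.0914), TNNT1 at 2.096 (0.125) and TNNI1 at 1.59 (0.255). Of the fast fibre markers ACTN3 was at -3.43 (limma adjusted p = 0.146), TNNT3, merged with neighbouring genes, at -2.93 (0.182) and MYOZ1 at -0.65 (0.323). Limma called 0 of the 7 slow and 0 of the 6 fast markers over the 6 libraries, beside 0.579% of all genes. Unadjusted p was under 0.05 in 7 and 5 of them, against 19% of all genes. Without ST replicate 2 all 7 slow and 5 of the 6 fast markers were called, beside 5.15% of all genes. That library was singled out by these same markers, so those calls are not separate support.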
